A study of Homo sapiens with 12 samples.

Results

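Ribosomes carrying the S38A form of RPL12 were compared with the 80S fraction they were pulled from. The comparison used 4 of the 12 RNA libraries of the study, chosen by their labels: 2 IP libraries and the 2 input libraries of the same numbers. The cells were HEK293 Flp-In T-Rex, a human embryonic kidney line with a defined site for a transgene. Stable lines selected from hygromycin-resistant colonies overexpressed FLAG/HA-tagged RPL12 as S38A, as S38D or as wild type (WT), each with 2 IP and 2 input libraries. Cycloheximide was added to pooled 80S fractions of a sucrose gradient. An aliquot gave the input RNA, and anti-FLAG beads gave the IP RNA from what was left. All 12 libraries therefore come from cells that overexpress a tagged RPL12, and none of the 12 is an IP from cells without a tag. RNA held on the beads without the tag cannot be told apart from RNA recovered through RPL12. The labels do not say that the 2 fractions of a line were separate cultures, so the p-values measure the spread between these fractions, which may be technical.

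RPL12, also called uL11, belongs to the large ribosomal subunit and sits at the base of the stalk, the flexible arm of the ribosome that recruits and activates translation factors with GTPase activity. The study concerns phosphorylation of its serine 38 and translation in mitosis. Alanine at this position cannot carry a phosphate, aspartate is used to imitate one, and the 80S peak of a gradient holds single ribosomes, on an mRNA or free of one. IP over input in S38A thus asks which RNAs of the 80S peak were held by ribosomes with the form that cannot be phosphorylated there.

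The S38A IP libraries held 6150315 and 7430881 gene counts, and the S38A inputs 8679169 and 8723130. Over the other lines, IP libraries held 3186164 to 5048911 gene counts and inputs 7434431 to 8494734. A gene count was seen for 22314 and 23418 identifiers in S38A IP and for 23997 and 24547 in S38A input. The 100 most abundant identifiers took 12.8% and 10.2% of the counts in S38A IP, against 9.91% and 7.99% in S38A input. Across genes the libraries of a pair of replicates correlated at 0.974 in S38A IP and 0.976 in S38A input (log2 CPM, genes not being independent replicates). In IP over input the first WT fraction correlated less with the other 5 than those did with each other. The counts of shared calls, the size of the contrast and the S38A versus WT test are therefore given with and without it. Genes are known here by Ensembl identifier only, so neither RPL12 itself nor markers of the HEK293 line were looked up.

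In S38A, 1001 of 16920 genes (5.92%) were higher in IP than in input and 1078 (6.37%) were lower, together 12.3% of all genes tested (edgeR quasi-likelihood test with the fraction as a block, Benjamini-Hochberg adjusted p under 0.05). Scaled on total counts in place of TMM, the split was 484 higher and 1834 lower. The changes were small. The genes called higher had a median log2 fold change of 0.58, with 0.43 and 0.87 at the 10th and 90th percentiles, and those called lower had a median of -0.63, with -0.96 and -0.45. At least 2-fold changes were seen in 60 of the genes called higher and 96 of those called lower. Genes called higher took 22.7% and 19.9% of the counts of the S38A IP libraries, against 16.9% and 13.7% in the S38A inputs. Genes called lower took 4.39% and 4.76% in S38A IP, against 6.92% and 8.08% in S38A input. These shares describe the genes the test chose.

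**Figure D1:**
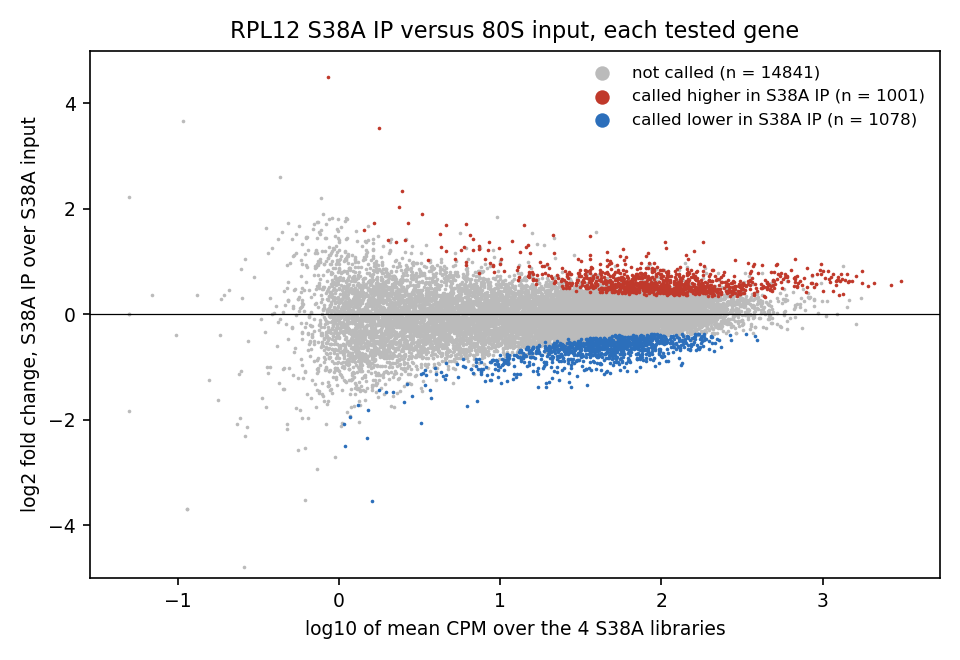
Each point is 1 tested gene, with the log10 of its mean CPM over the 4 S38A libraries on the x axis and its fitted log2 fold change, S38A IP over S38A input, on the y axis. Genes called higher (1001) and lower (1078) lie mostly within 1 log2 unit of 0, and the ones called higher reach further to the right.

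These calls depended on the block. The input and IP library of a number come from 1 fraction, and what each departed from the mean of its group correlated at 0.64 in S38A across 16920 genes. Without the block the same test called 0 genes, with 2575 at unadjusted p under 0.05 where 846 are expected by chance, and DESeq2 with the block called 776. All 2079 genes had the same direction of change without the block and with DESeq2. Both refit the libraries on which the genes were chosen, so the shared direction is no separate support. The count also rested on the spread seen in the other lines: it was 6087 and 6068 without the first or second WT fraction, 614 and 621 without the first or second S38D fraction, and 0 without either S38A fraction, when the fraction left was assumed to vary like the other lines.

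In 4176 genes both S38A IP libraries stood above both S38A inputs, and in 4075 both stood below, together 48.8% of the genes tested, and with 2 libraries a side nothing is read from that share. The test called 944 of the genes in the first set and 1006 of those in the second. Another 57 genes called higher and 72 called lower had overlapping libraries.

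The largest changes among genes with a mean of at least 5 CPM over the 4 S38A libraries, an adjusted p under 0.05 and no overlap were followed in each library. The CPM given per library are the usual depth-scaled counts after TMM scaling. The mean CPM used for cut-offs and quartiles was scaled by depth alone. Identifier ENSG00000251705.1 stood at 11.1 and 7.10 CPM in S38A IP, against 3.39 and 2.16 CPM in S38A input. Both IP libraries lay above both inputs, and the increase was 3.26-fold (log2 1.70, SE 0.38, edgeR adjusted p = 0.021). It was reached from 67 and 55 counts in IP and 32 and 21 in input.

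Identifier ENSG00000243449.2 stood at 14.5 and 25.8 CPM in S38A IP, against 2.65 and 10.6 CPM in S38A input. The second fraction was higher than the first in both IP and input, and both IP libraries lay above both inputs. The increase was 3.25-fold (log2 1.70, SE 0.43, edgeR adjusted p = 0.032). Its IP over input was 2.33 on the log2 scale in the first S38A fraction and 1.26 in the second.

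Among genes that fell, identifier ENSG00000267160.1 stood at 3.80 and 1.68 CPM in S38A IP, against 10.2 and 7.62 CPM in S38A input. Both IP libraries lay below both inputs, with 23 and 13 counts in IP and 96 and 74 in input (log2 -1.74, SE 0.33, edgeR adjusted p = 0.013). Identifier ENSG00000261366.1 stood at 3.80 and 2.71 CPM in S38A IP, against 9.74 and 10.3 CPM in S38A input. Its inputs lay close together and IP over input was -1.30 and -1.82 on the log2 scale in the 2 fractions (fitted log2 -1.64, SE 0.26, edgeR adjusted p = 0.0081).

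**Figure D2:**
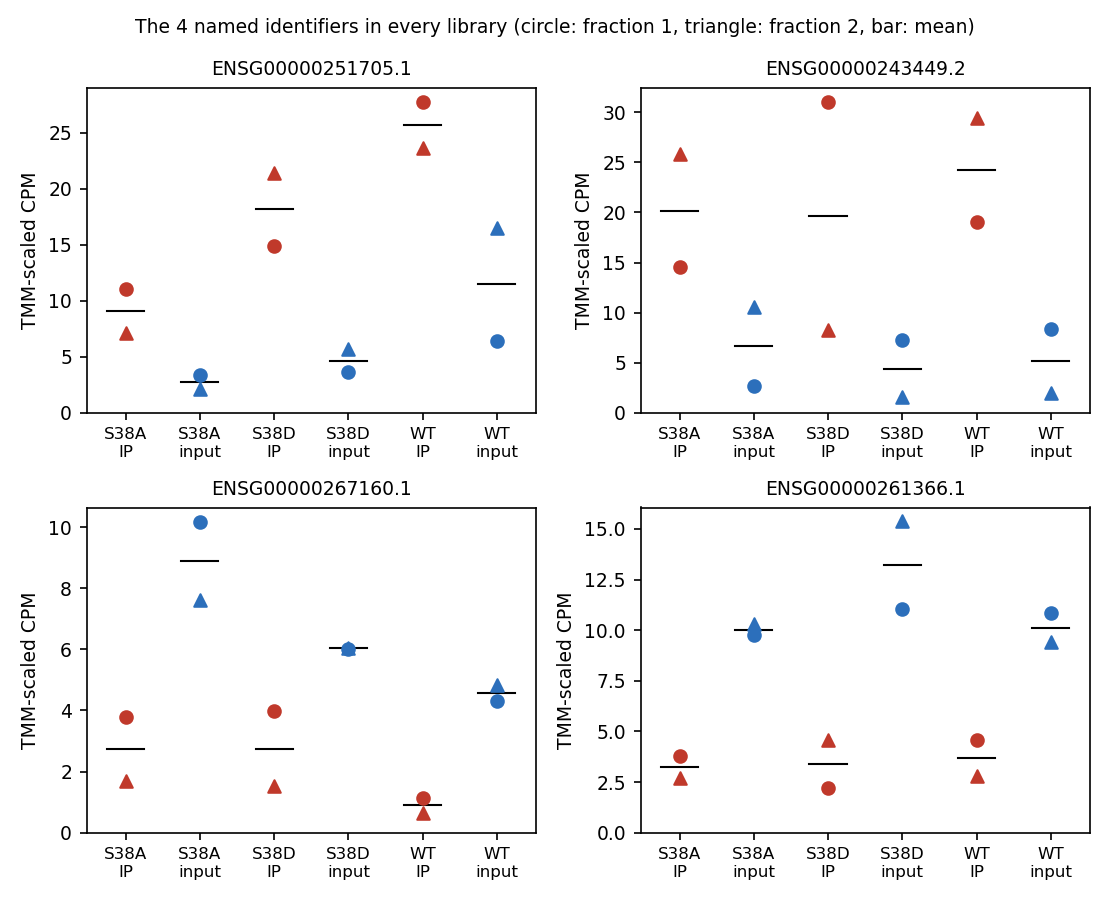
TMM-scaled CPM of the 4 identifiers in every library, with S38A left of S38D and WT and IP left of input; circles are fraction 1, triangles fraction 2 and bars the mean of the 2 libraries. In S38A the IP libraries lie above the inputs for ENSG00000251705.1 and ENSG00000243449.2 and below them for ENSG00000267160.1 and ENSG00000261366.1.

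Without the block none of these 4 passed (edgeR adjusted p = 0.16 for ENSG00000251705.1, 0.35 for ENSG00000243449.2, 0.15 for ENSG00000267160.1 and 0.14 for ENSG00000261366.1), while their log2 changes were 1.70, 1.61, -1.72 and -1.63. DESeq2 with the block gave none of the 4 an adjusted p for IP versus input in S38A, so none is shown to pass there. Without the first or second S38D fraction ENSG00000251705.1 stood just above the threshold in both, at an adjusted p of 0.050, and ENSG00000243449.2 did not pass either, at 0.068 and 0.067 (edgeR).

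The same identifiers had the same direction in the other lines. ENSG00000251705.1 changed by 1.70 (SE 0.38) in S38A, 1.97 (SE 0.35) in S38D and 1.21 (SE 0.31) in WT, and ENSG00000261366.1 by -1.64 (SE 0.26), -1.98 (SE 0.29) and -1.50 (SE 0.30) in the same lines. ENSG00000267160.1 was at -1.74 (SE 0.33) in S38A, -1.10 (SE 0.40) in S38D and -2.44 (SE 0.56) in WT, and its fall did not pass in S38D (edgeR adjusted p = 0.078). ENSG00000243449.2 was at 1.70 (SE 0.43) in S38A, 2.17 (SE 0.51) in S38D and 2.31 (SE 0.48) in WT. The difference between S38A and WT did not pass for any of the 4 (edgeR adjusted p of 0.79, 0.81, 0.80 and 0.94, in the order of the plot of the 4 identifiers), except for ENSG00000243449.2 when the first WT fraction was left out (log2 difference -2.25, adjusted p = 0.0026).

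The 2 S38A fractions ranked abundant genes much alike and rare genes less so. Over 11704 genes with a mean of at least 10 CPM, IP over input correlated at r = 0.797 between the fractions, which share no library. Over all 16920 genes r was 0.561, the rank correlation was 0.624 and the 2 fractions had the same sign for 76.3%. In the quartile of genes with the highest mean CPM over the 12 libraries the sign was shared by 87.0% and r was 0.87. In the quartile with the lowest CPM, from 0.294 to 6.20, the sign was shared by 61.7% and r was 0.31. Counting noise is larger at low counts, and correlations across genes are given as descriptions.

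**Figure D3:**
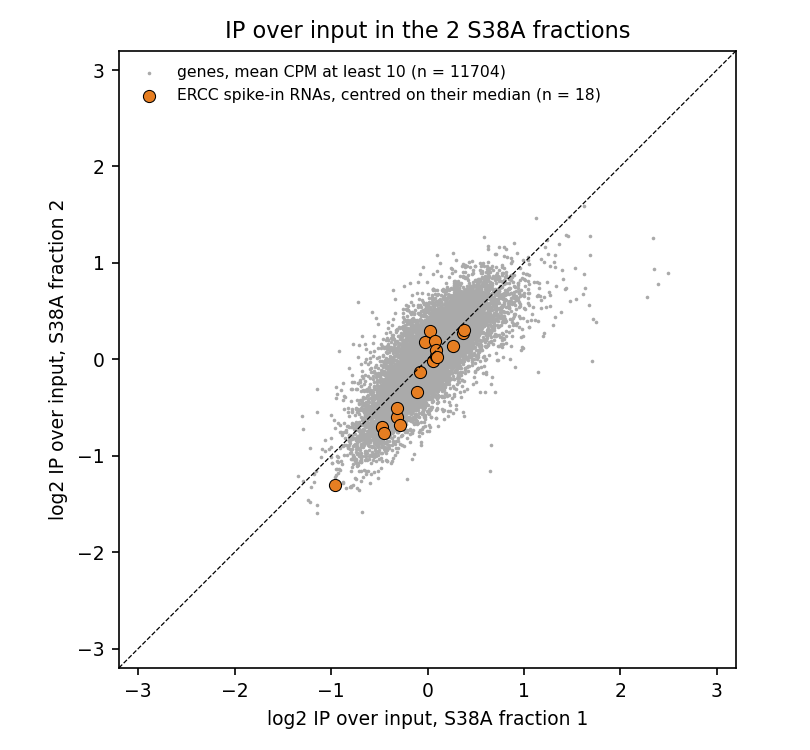
Grey points are 11704 genes with a mean of at least 10 CPM, with log2 IP over input of S38A fraction 1 on the x axis and of fraction 2 on the y axis, and orange points are 18 ERCC spike-in RNAs centred on their median. The genes (r = 0.797) and the spike-in RNAs (r = 0.949) both spread along the diagonal.

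Spike-in RNA served as a second measure of that spread. ERCC RNAs are synthetic polyadenylated RNAs with no partner in the cell, and the labels give an equal amount for the inputs. They took 1.79% ± 0.502 of all counts in S38A IP and 0.277% ± 0.0923 in S38A input (SD, n = 2 each). The share was 6.28-fold and 6.80-fold higher in IP in the 2 fractions. For the IP RNA the sources used here give no spike-in amount.

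Single ERCC RNAs kept their own ratios. With at least 100 counts in each S38A library, 18 ERCC RNAs had an SD of log2 IP over input of 0.333 in the first fraction and 0.461 in the second. The 10176 genes that met the same minimum had SDs of 0.334 and 0.389. Between the fractions the ratios correlated at 0.949 over the ERCC RNAs and 0.823 over the genes. ERCC-00060 was lowest, at -0.96 and -1.30 from the ERCC median in the 2 S38A fractions, and it stood at -1.15 and -1.18 in S38D and -1.14 and -1.23 in WT. ERCC-00130 was highest in both S38A fractions, at 0.38 and 0.30, and it stood at 0.69 and 0.67 in S38D and 0.58 and 0.37 in WT. Synthetic RNAs thus differed between S38A IP and input libraries by about as much as cell genes did. The part of this in the gene calls was not tested.

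Relative to rare RNAs, abundant RNAs leaned toward the S38A IP, as they did toward the IP in WT and S38D. The values that follow are with TMM. In the quartile with the highest mean CPM, from 71.2 to 3578, 645 genes were higher and 215 lower, 20.3% of the quartile, with a median log2 change of 0.14. In the next quartile 252 rose and 502 fell, and the median was -0.03. In the 2 quartiles below, 84 were higher and 323 lower (median -0.07), and 20 were higher and 38 lower (median -0.08). The S38A fractions gave 0.13 and 0.128 for the highest quartile and -0.084 and -0.074 for the lowest. Fitted medians of the highest and lowest quartile were 0.175 and -0.128 in WT and 0.185 and -0.207 in S38D. The lean was thus not particular to S38A. Calls are easier at high counts, so shares of calls do not compare quartiles directly.

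**Figure D4:**
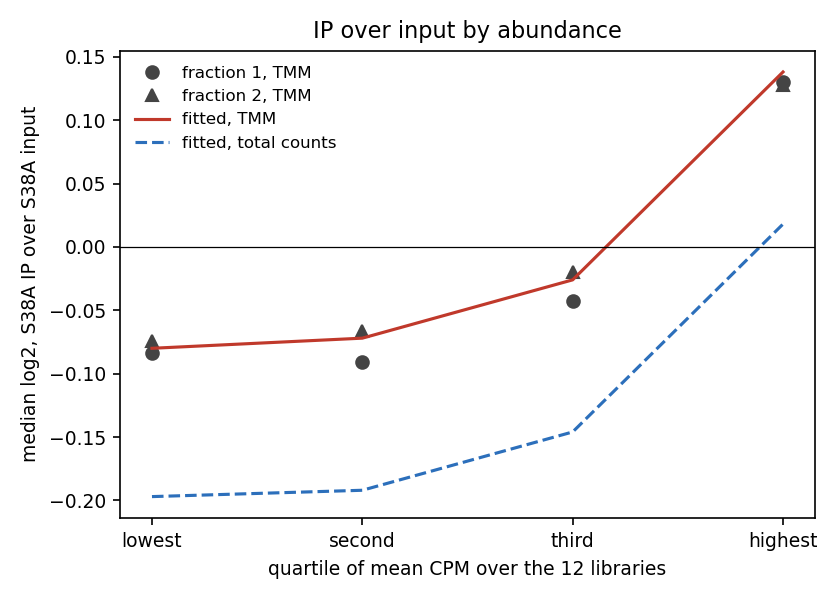
Median log2 IP over input in S38A for 4 quartiles of mean CPM, from lowest to highest on the x axis; points are the 2 fractions, the solid line the fit with TMM scaling and the dashed line the fit scaled on total counts. Both lines climb with abundance, and scaling on total counts moves every median down.

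The zero line depended on scaling. With total counts in place of TMM the median of all genes was -0.12. The highest quartile then had a median of 0.02, with 356 genes higher and 445 lower, and the lowest a median of -0.20. A change of scaling moves the log2 ratios of all genes about alike, so it cannot check the order of the quartiles. The majority among the calls of the highest quartile turned round.

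Markers of cell cycle phases were taken from the human marker pairs in scran, a list chosen with earlier results of these data known. Of 239 G1 markers tested, 20 were higher and 16 lower in S38A IP, and the median was 0.09, against -0.002 for all genes. Of 251 S markers, 34 were higher and 23 lower, and the median was 0.04. Of 208 G2M markers, 8 were higher and 12 lower, and the median was -0.01. The shares called were 15.1% for G1, 22.7% for S and 9.62% for G2M, beside 12.3% of all genes. Their median levels were high, at 69.5, 78.2 and 71.5 CPM in S38A against 31.5 CPM over all genes. In the third and highest quartiles of abundance 17.8% and 20.3% of genes were called. The median levels lay near 71.2 CPM, the bound between these quartiles, and members may lie in others. With total counts the median changes of the lists were -0.03, -0.08 and -0.13, beside -0.12 for all genes. In each list more members were then lower than higher: 27 and 8 for G1, 42 and 16 for S, and 27 and 5 for G2M. Without the block 0 members of the 3 lists passed. The G2M list, with markers of G2 and mitosis, thus had a median within 0.01 of that of all genes with TMM. Scaling on total counts moves the list and all genes about alike, so it is no further check. The third and highest quartiles of abundance, which meet near the median level of the list, had medians of -0.03 and 0.14 with TMM.

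The IP contrast in S38A was then set beside those of S38D and WT, which share no library with it. Of the 1001 genes called higher in S38A, 998 were also higher in S38D and 1000 in WT. Of the 1078 called lower, 1075 were lower in S38D and 1073 in WT. The same fit called 2079 genes in S38A, 3379 in S38D and 4818 in WT, which are 12.3%, 20.0% and 28.5% of the genes tested. That fit used a shared estimate of spread per gene for all lines, so a gene with a small spread is called more easily in each. The shared calls that follow are thus not independent. Of the genes called higher in S38A, 80.2% were called higher in S38D and 82.9% in WT, while the S38A calls held 44.4% of the genes called higher in S38D and 35.1% of those called higher in WT. For genes called lower in S38A, 77.8% were called lower in S38D and 89.1% in WT, and the S38A calls held 53.4% of those called lower in S38D and 39.2% of those in WT. With the first WT fraction left out of the fit, and the remaining WT fraction assumed to vary like the other lines, 1001 of the genes called higher in S38A were higher in WT and 1072 of those called lower were lower. Of the genes called higher in S38A 93.6% were then called higher in WT, and of those called lower 89.5% were called lower. The S38A calls held 37.6% of the genes called higher in WT and 37.2% of those called lower.

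The size of the contrast was read on genes chosen in a line that was not being compared. For the 1809 genes higher and 1570 lower in S38D, the median log2 change of the higher genes minus that of the lower genes was 0.962 in S38A and 1.377 in WT. By fraction it was 0.866 and 1.025 in S38A, against 1.448 and 1.276 in WT. For the 2366 genes higher and 2452 lower in WT, the gap was 0.84 in S38A and 1.111 in S38D. By fraction it was 0.779 and 0.864 in S38A, against 1.017 and 1.184 in S38D. Both S38A fractions thus lay below both WT fractions and below both S38D fractions. With 2 fractions against 2 the two-sided exact permutation test gave p = 0.333 in each case, the smallest p this design allows. Without the first WT fraction, with the calls made anew, the gap over genes called in S38D was 0.77 in S38A and 1.03 in WT, and that over genes called in WT was 0.86 in S38A and 1.03 in S38D.

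**Figure D5:**
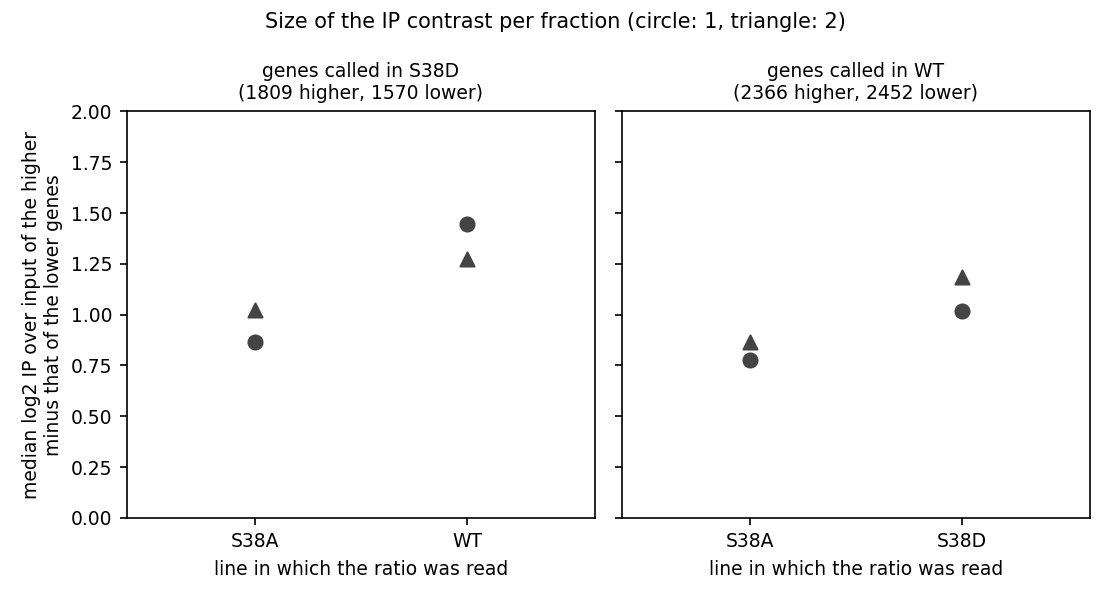
The y axis is the median log2 IP over input of genes called higher minus that of genes called lower in the line named above each panel; circles are fraction 1 and triangles fraction 2. In both panels the 2 S38A fractions lie below the 2 fractions of WT or of S38D.

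ERCC RNA took 2.15% and 1.44% of counts in the S38A IP libraries, 3.79% and 5.18% in S38D IP and 5.43% and 2.57% in WT IP. The share was 6.28-fold and 6.80-fold higher in IP than in input in the S38A fractions, 10.8-fold and 15.7-fold in the S38D fractions and 46.7-fold and 5.31-fold in the WT fractions. Beside both S38A fractions, the second WT fraction had a larger gap, a lower spike-in fold and a higher spike-in share in IP. The S38A IP libraries were also the deepest IP libraries. Restricted to genes with a mean of at least 10 CPM, the gap over genes called in S38D was 0.943 in S38A and 1.354 in WT, and that over genes called in WT was 0.817 in S38A and 1.079 in S38D. Without the first WT fraction these gaps were 0.746 in S38A and 1.004 in WT, and 0.845 in S38A and 1.004 in S38D. The part of the spike-in shares and of the amount of IP RNA in the difference was not tested.

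Gene by gene, the contrasts of the lines were not separated. When IP over input of S38A was set against that of WT, 0 of 16920 genes passed (edgeR with the block, lowest adjusted p = 0.67), with 1177 at unadjusted p under 0.05 where 846 are expected by chance. For S38A versus S38D 0 passed, with 578 at unadjusted p under 0.05. DESeq2, voom and the fit without the block called 0 in each, and with no filter on low counts 262 and 26 passed. These counts turned on the WT fractions. Without the second WT fraction, which leaves the first, 1080 genes were higher and 1832 lower in S38A than in WT, and without the first 1 was higher and 28 lower. In S38A versus S38D, without the first or second WT fraction 39 genes were higher in both cases and 366 and 362 lower, where WT enters only through the shared spread, scaling and filter. The first WT fraction stood apart from the second, with IP over input correlating at 0.641 between them (11704 genes), against 0.797 in S38A and 0.855 in S38D. The second WT fraction correlated at 0.876 and 0.835 with the 2 S38A fractions, and the first at 0.656 and 0.548. With each S38D fraction the first WT fraction correlated at 0.753, close to the 0.759 to 0.808 of the S38A fractions.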

How the data were processed

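Per the labels, polyadenylated RNA of 80S fractions and of anti-FLAG IPs was sequenced. The authors deposited raw read counts, 1 table per library, for 57820 Ensembl gene identifiers plus 92 ERCC sequences. The submitters' processing notes name STAR 2.4.2a, bcl2fastq 2.16.0.10 and DESeq2 and the build hg19. How reads were counted, by strand and where they map to several places, is not stated there, so antisense, overlapping and near-identical genes are uncertain. Groups and replicate numbers were taken from the titles. ERCC counts stayed out of library sizes and tests.

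The RefSeq table of 59792 genes held 0 Ensembl identifiers, so 0 identifiers were matched to a symbol, and the 34 lists prepared by symbol could not be applied. The rule for named genes then left 2 identifiers that rose and 2 that fell: those of largest fitted change with adjusted p under 0.05, no overlap and a mean of at least 5 CPM over the 4 S38A libraries. The members, lists and tests were chosen with earlier results of these data known. No sequence was needed for a result.

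The counts were tested with edgeR 4.0.16 in R 4.3.3, using filterByExpr with a minimum count of 10, TMM, and glmQLFit with glmQLFTest on all 12 libraries, with the fraction as a block and an IP effect per line. Input and IP of a number come from 1 fraction per the labels, and their deviations correlated at 0.64 in S38A, 0.54 in S38D and 0.28 in WT. Standard errors are the size of the log2 fold change divided by the square root of F. Values per fraction are differences of log2 CPM with a prior count of 2. The replicates of each group differed by more than counting noise (chi-square per degree of freedom 5.39 to 16.0). Cell cycle lists came from scran 1.30.0 and kept genes in at least 20 pairs of 1 phase, first in a share of at least 0.8. Counts were also simulated with the spread of the main fit, with changes set only in chosen genes of the S38A IP libraries. For IP versus input in S38A, the test recovered 89% of the 4-fold and 62% of the 2-fold changes in 16727 genes, with 13 false calls. The simulation took that spread as given and held no IP effect in WT or S38D. It therefore does not give the rate of false calls in the real counts, and changes below 2-fold were not tried.

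Alternatives were no block, RLE and total counts, no filter, mean CPM of at least 10, DESeq2 1.42.0, voom in limma 3.58.1, the 4 S38A libraries alone and omission of each fraction.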

Additional observations from a re-analysis of the deposited data

Results flagged for a closer look

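ERCC spike-in RNA stood outside the gene comparisons and took more of the counts in the S38A IP libraries than in their inputs, 1.79% ± 0.502 against 0.277% ± 0.0923 (SD, n = 2 each). The 95% Clopper-Pearson interval was 2.13% to 2.16% in the first S38A IP library and 1.43% to 1.44% in the second, against 0.338% to 0.346% and 0.208% to 0.214% in the inputs, and covers counting error only.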

How the results depend on the processing

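The gap between genes called in another line, and the shared calls without the first WT fraction, were tried under alternatives chosen after values were seen, and the other alternatives were planned. The number of genes called in S38A was 0 with no replicate block, 776 with DESeq2 (455 higher, 321 lower), 5953 with the 4 S38A libraries alone (3031 higher, 2922 lower, with the spread taken from those libraries), and 0 to 6087 with 1 fraction left out (0 to 3233 higher, 0 to 2854 lower). With total counts 484 were higher and 1834 lower. RLE, no filter, mean CPM of at least 10 and voom gave 2076, 2938, 2231 and 2584. The difference of S38A from WT gave 262 genes with no filter (9 higher, 253 lower) and 0 to 2912 with 1 fraction left out (0 to 1080 higher, 0 to 1832 lower). That of S38A from S38D gave 26 with no filter (1 higher, 25 lower) and 0 to 405 with 1 fraction left out (0 to 39 higher, 0 to 366 lower). In 2078 to 2079 of the 2079 genes called in S38A that were tested, the direction was the same with each fraction left out. These genes were chosen on both S38A fractions, and omission of a WT or S38D fraction left the S38A libraries as they were. The shared direction is thus no separate support. Over the 4 named identifiers and 3 comparisons, 133 values kept their side of the threshold, 16 no longer passed and 1 newly passed. The count of these values leaves out settings that gave no adjusted p, among them DESeq2 for IP versus input in S38A. The gap over genes called in S38D was smaller in S38A than in WT under 12 of 12 alternatives, at 0.77 to 1.55 against 1.03 to 2.10, and that over genes called in WT was smaller in S38A than in S38D under 13 of 13, at 0.62 to 1.05 against 0.89 to 1.45. Each alternative refitted these same libraries or all but 1 fraction of them, and a change of scaling largely cancels in a gap. The gap tallies are thus no separate support. Without the second S38D fraction edgeR called 0 genes in S38D, with 2787 at unadjusted p under 0.05, so the first gap has no value there. The cause of these changes was not tested. Low counts limit the lowest abundance quartile.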
